A study of Mus musculus with 20 samples.

Results

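The 9 genes described here carry the insulin signal in liver cells or answer to it: Insr, Irs1, Irs2, Pik3r1, Akt1, Akt2, Foxo1, Foxo3 and Igfbp1. They were taken by symbol, and all 9 were found among the 13319 symbols listed in every library. Livers came from 20 male mice fed a western diet and dosed once a day over 16 days, and RNA-seq counts were available for 5 groups with 4 animals per group. These were a glucagon/T3 hybrid (1 molecule that joins both hormones, coded Cp and assigned to these libraries by elimination), the combination of glucagon with T3, T3 alone, glucagon alone, and control. T3 is triiodothyronine, the active thyroid hormone, and glucagon is the pancreatic hormone of fasting. All mice, the controls included, received the western diet, so no group shows the liver on another diet. Strain, age, doses, vehicle and the time between the last dose and tissue collection were not given in the sources used here.

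Insulin binds its receptor, whose kinase marks the adaptor proteins IRS1 and IRS2. These recruit phosphatidylinositol 3-kinase, and the lipid it makes leads to activation of AKT. Active AKT keeps the FOXO transcription factors out of the nucleus, so genes that FOXO proteins switch on, among them Igfbp1, are high in the fasted liver and low after feeding. The counts measure messenger RNA and show neither phosphorylation nor the place of a protein in the cell.

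Library totals ran from 8791923 to 17445035 counts in hybrid mice, 9858877 to 14897657 in combination mice, 6091917 to 7996156 in T3 mice, 11988039 to 19931718 in glucagon mice and 11562213 to 23195658 in controls. Every member had at least 63 counts in each library. All T3 libraries ran in lane 5 and the others in lanes 1 to 4, so for each comparison between T3 mice and another group, treatment and lane cannot be told apart. Summed over the 11 tested hepatocyte genes of a list of 12, the level was 81584 to 114731 CPM (counts per 1000000) in hybrid mice, 96605 to 150613 in combination mice, 86894 to 130984 in T3 mice, 162918 to 227532 in glucagon mice and 133148 to 253038 in controls. The 17 tested macrophage genes of a list of 18 summed to 1178 to 1645 CPM in hybrid mice, 1172 to 1390.1 in combination mice, 1560.3 to 1955 in T3 mice, 535 to 665 in glucagon mice and 697 to 1376 in controls. Most of the hepatocyte sum was Alb, with a median of 105395 CPM over the libraries, against 8924 for Apoa1, the next highest. Of the 11 hepatocyte genes, 3 passed an edgeR adjusted p of 0.05 as lower than control in hybrid mice. In combination, T3 and glucagon mice 1, 2 and 1 did, and 0 passed as higher in any group. The parts of the hepatocyte and macrophage lists in the results below were not tested. In whole liver, fewer cells of a type and less RNA per cell cannot be told apart. A few libraries stood apart. Control 2 had 3265 CPM over 20 interferon response genes, against 490 to 716 CPM in the other controls, and 1144 CPM over skeletal muscle genes. Over the same muscle genes hybrid 4 had 727 CPM, against 31.0 to 39.1 in the other hybrid libraries, and combination 4 had 434 CPM, against 29.1 to 38.7. Glucagon 3 had 4297 CPM over them, against 48.5 to 115 CPM in the other glucagon libraries. Calls of the members that change without control 2 and glucagon 3, or without all 4 libraries, are given in both forms.

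Of the 9 genes, 6 were high in particular groups. Irs2, Pik3r1, Foxo1 and Igfbp1 were high after glucagon alone. Irs1 was high in the 3 groups that received glucagon in any form, while Akt1 was high in the 3 groups that received T3 in any form. Foxo3 was low in hybrid and T3 mice, below glucagon in both and below control by the test in T3 mice alone. Insr and Akt2 passed the test in none of the comparisons. Changes are log2 fold changes from edgeR's quasi-likelihood test over 12907 genes with their standard errors, and a gene is called where its Benjamini-Hochberg adjusted p was under 0.05.

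**Figure D1:**
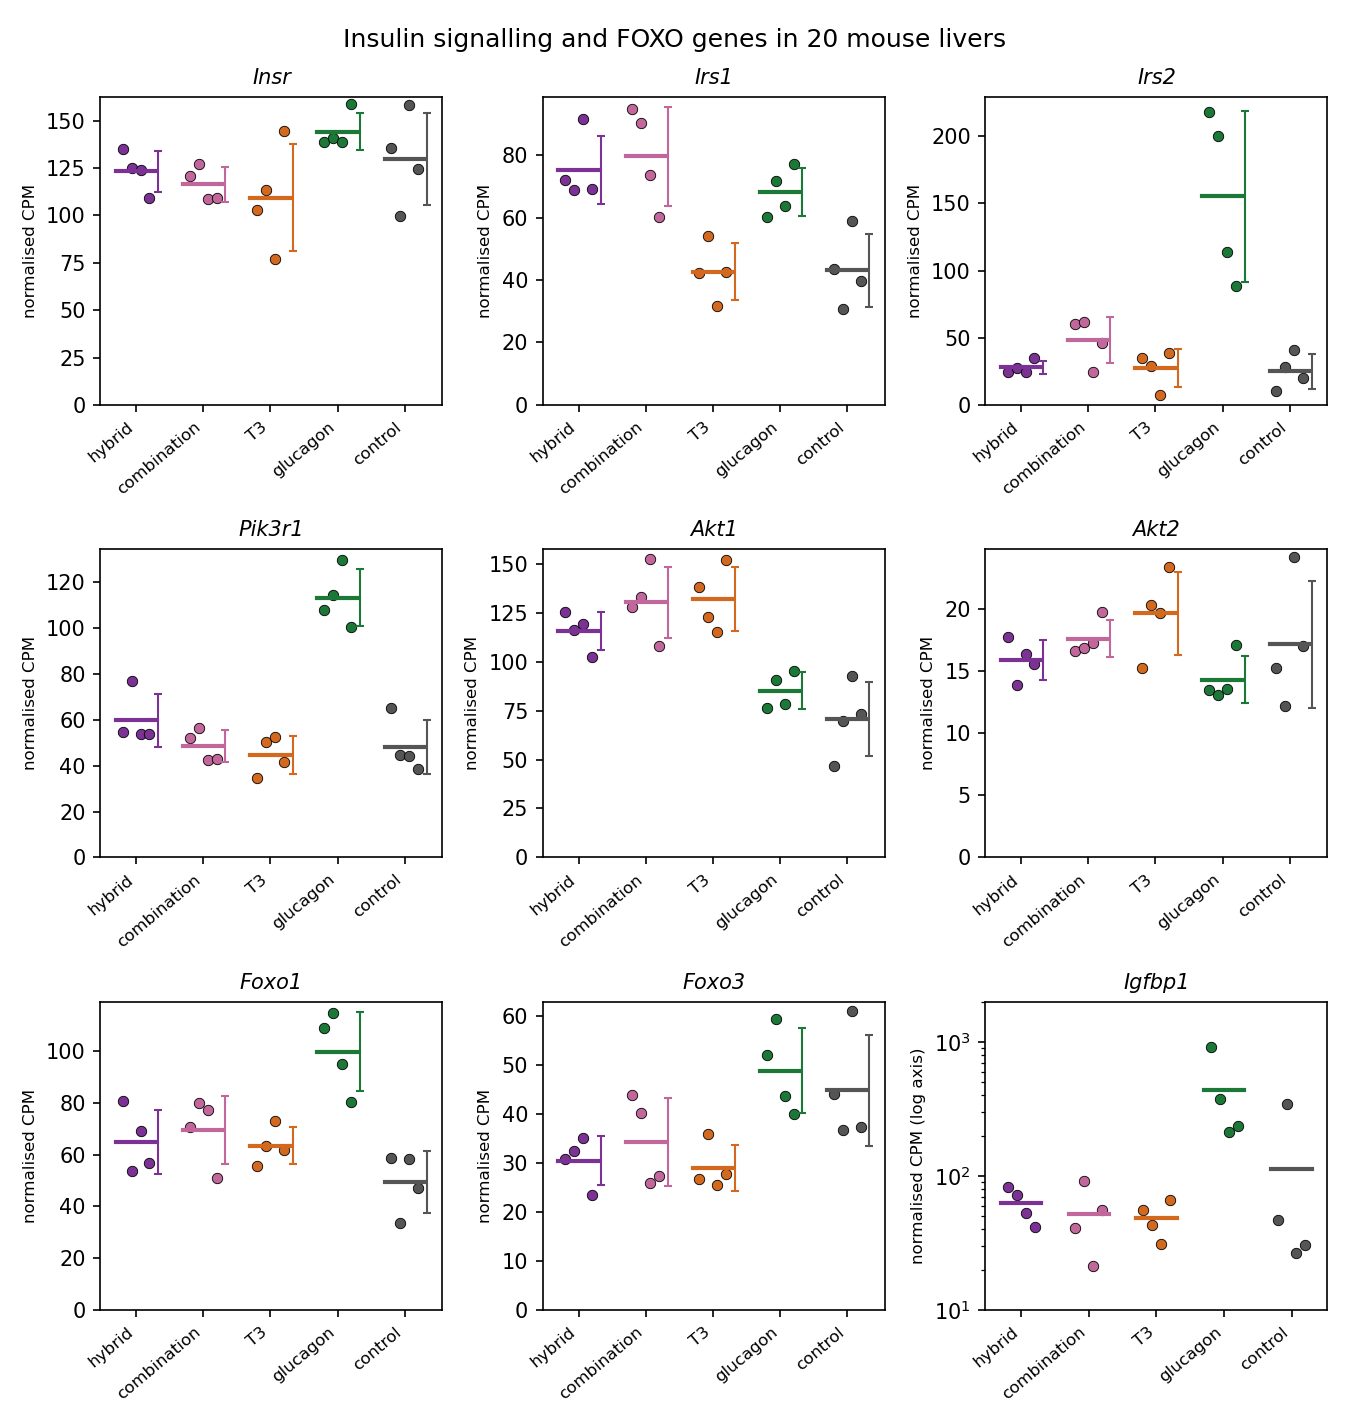
Level of each of the 9 genes in CPM (y axis, log scale for Igfbp1) in every library of the 5 groups (x axis). Points are libraries and horizontal lines group means, with SD bars except for Igfbp1. Glucagon libraries stand highest for Irs2, at 88.5 CPM or more, and Akt1 stands at 102 CPM or more in hybrid, combination and T3 libraries.

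Against control, glucagon alone raised 5 of the 9 genes (Irs1, Irs2, Pik3r1, Foxo1 and Igfbp1) and lowered none, where 21.2% of all tested genes were called, 9.23% higher and 11.9% lower. The members' median log2 change was 0.66, beside -0.09 over all tested genes. The members were chosen with earlier results of these data known, so setting them beside all genes is a description and not a test. T3 alone raised Akt1 and lowered Foxo3, where 18.0% of all genes were called, 7.31% higher and 10.6% lower. The combination raised Irs1 and Akt1, beside 20.1% of all genes called, 9.23% higher. The hybrid raised the same 2 genes, beside 24.4% of all genes called and 11.2% called higher, so for the combination, the hybrid and T3 the share of members called in either direction was near that of all genes. These 4 comparisons share their control libraries.

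**Figure D2:**
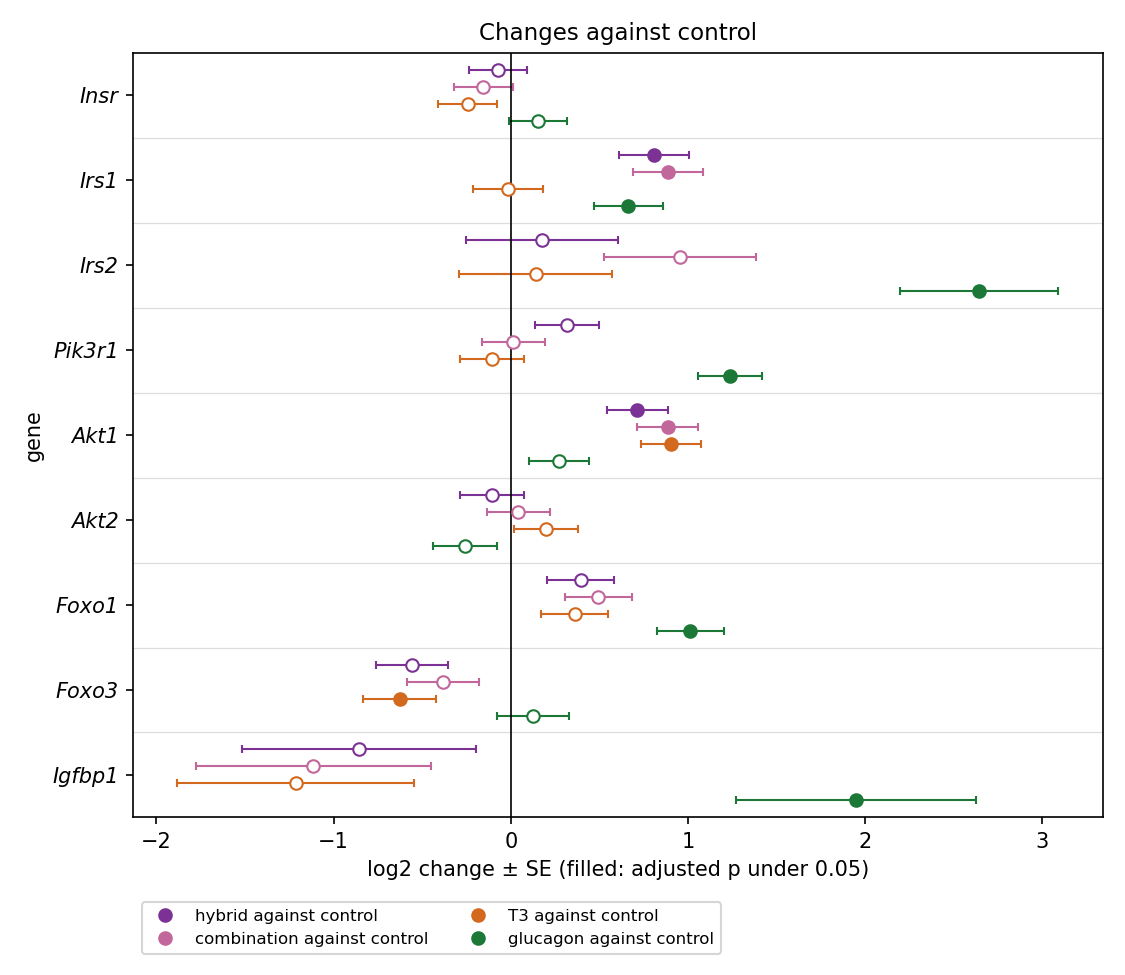
Log2 fold change (x axis) of each member against control in the 4 treated groups. Points are estimates, bars 1 SE, and filled points passed an adjusted p of 0.05. Irs2 after glucagon lies farthest to the right, at 2.64, and Irs1 and Akt1 are filled for both hybrid and combination.

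Insr encodes the insulin receptor and lies on chromosome 8 (GRCm38, 3122061 to 3279617, minus strand). Its level was 135, 125, 124 and 109 CPM in hybrid mice, 121, 127, 109 and 109 in combination mice, 103, 113, 76.9 and 145 in T3 mice, 139, 141, 139 and 159 in glucagon mice and 135, 99.8, 158 and 125 in controls. The control range held all but 2 of the treated libraries, T3 3 below it and glucagon 4 above it. Against control the log2 change was -0.07 ± 0.16 (SE) for the hybrid, -0.15 ± 0.17 for the combination, -0.24 ± 0.17 for T3 and 0.16 ± 0.16 for glucagon, with 95% intervals that together ran from -0.59 to 0.50. All 4 combination and all 4 hybrid libraries lay below every glucagon library, with log2 differences of -0.31 ± 0.17 (edgeR adjusted p = 0.196) and -0.23 ± 0.16 (adjusted p = 0.350). The combination value passed when only those 2 groups were fitted (-0.31, adjusted p = 0.0349). T3 mice lay 0.40 below glucagon mice on the log2 scale (adjusted p = 0.0726), a difference that passed with DESeq2, without control 2 or without T3 4 (adjusted p = 0.0471, 0.0472 and 0.0158).

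Irs1 and Irs2 encode the adaptors that pass the signal from the receptor, and IRS2 is the one known to follow the fasting state in liver. Irs1 lies on chromosome 1 (82233101 to 82291416, minus strand) and Irs2 on chromosome 8 (10984681 to 11008458, minus strand). The strand setting of the counting was not given, so reads cannot be told apart from those of Gm9747, which shares 2822 exon bases with Irs1 on the other strand, or of 9530052E02Rik, which shares 162 with Irs2. Their upstream sequences, the 250 bases before the RefSeq start site on GRCm38.p6, are shown because the genes encode like proteins and yet had unlike profiles. Capitals mark letters of known binding motifs found on either strand: CAAAACA, the insulin response element of FOXO targets, read on the other strand as TGTTTTG, and TGACG, the core of the cAMP response element, read as CGTCA.
Irs1, chr1:82291440-82291689, minus strand: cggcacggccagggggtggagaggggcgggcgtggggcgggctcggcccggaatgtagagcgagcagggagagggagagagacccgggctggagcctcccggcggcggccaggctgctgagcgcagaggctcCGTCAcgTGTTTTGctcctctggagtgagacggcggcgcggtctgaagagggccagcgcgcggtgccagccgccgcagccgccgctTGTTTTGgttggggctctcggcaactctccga
Irs2, chr8:11008930-11009179, minus strand: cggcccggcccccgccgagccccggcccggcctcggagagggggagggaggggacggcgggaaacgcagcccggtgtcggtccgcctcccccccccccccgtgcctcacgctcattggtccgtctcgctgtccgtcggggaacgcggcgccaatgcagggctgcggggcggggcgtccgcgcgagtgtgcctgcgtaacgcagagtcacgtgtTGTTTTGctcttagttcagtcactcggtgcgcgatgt
Irs1 held TGTTTTG at bases 111 to 105 and again at 32 to 26 before the start, and CGTCA at 118 to 114. Irs2 held TGTTTTG once, at bases 37 to 31. Among 32851 mouse promoters, 5.56% held CAAAACA on either strand in the same 250 bases and 17.8% held TGACG. No marked letters overlap, and such letters describe the sequence, not binding.

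Irs1 stood at 72.2, 68.7, 91.6 and 69.2 CPM in hybrid mice, 94.8, 90.2, 73.5 and 60.1 in combination mice, 42.2, 54.1, 31.7 and 42.5 in T3 mice, 60.3, 71.8, 63.9 and 77.2 in glucagon mice and 43.6, 30.6, 58.8 and 39.6 in controls. All 12 libraries of the groups that received glucagon in any form lay above all 8 T3 and control libraries. Against control it rose 1.75-fold in hybrid mice (log2 0.81 ± 0.20, edgeR adjusted p = 0.00514). In combination mice it rose 1.85-fold (log2 0.89 ± 0.20, adjusted p = 0.00329). In glucagon mice it rose 1.58-fold (log2 0.66 ± 0.20, adjusted p = 0.0199). That last call was lost without control 2 (log2 0.54, adjusted p = 0.0519), without glucagon 4 (0.61, adjusted p = 0.0583), without both control 2 and glucagon 3 (0.56, adjusted p = 0.0725), and without those and hybrid 4 and combination 4 (0.58, adjusted p = 0.0660). It was also lost when only those 2 groups were fitted (0.69, adjusted p = 0.0708). In T3 mice Irs1 differed from control by -0.02 ± 0.20 (adjusted p = 0.968, 95% interval -0.43 to 0.39). The hybrid and combination groups lay 0.14 ± 0.19 and 0.22 ± 0.19 above glucagon on the log2 scale, below the threshold of the test in both cases (adjusted p = 0.643 and 0.456).

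Irs2 had 24.7, 27.8, 24.7 and 35.2 CPM in hybrid mice, 60.0, 61.8, 24.8 and 45.9 in combination mice, 34.7, 29.2, 7.43 and 38.7 in T3 mice, 218, 200.5, 114 and 88.5 in glucagon mice and 10.3, 28.4, 41.1 and 20.1 in controls. The 4 glucagon libraries lay above all 16 others, while the remaining groups overlapped. Glucagon raised it 6.25-fold over control (log2 2.64 ± 0.45, edgeR adjusted p = 0.000276), and 2.85 ± 0.52 without control 2 and glucagon 3 (adjusted p = 0.000744). With T3 added to glucagon, Irs2 was 3.22-fold lower in combination than in glucagon mice (log2 -1.69 ± 0.43, adjusted p = 0.00725). In hybrid mice it was 5.53-fold lower than in glucagon mice (log2 -2.47 ± 0.44, adjusted p = 0.000401). Its level in combination mice was 0.95 ± 0.43 above control on the log2 scale, which did not pass (adjusted p = 0.121), but did when control 3 was left out (1.29, adjusted p = 0.0410). Hybrid mice differed from control by 0.18 ± 0.43 (adjusted p = 0.807, 95% interval -0.71 to 1.07).

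**Figure D3:**
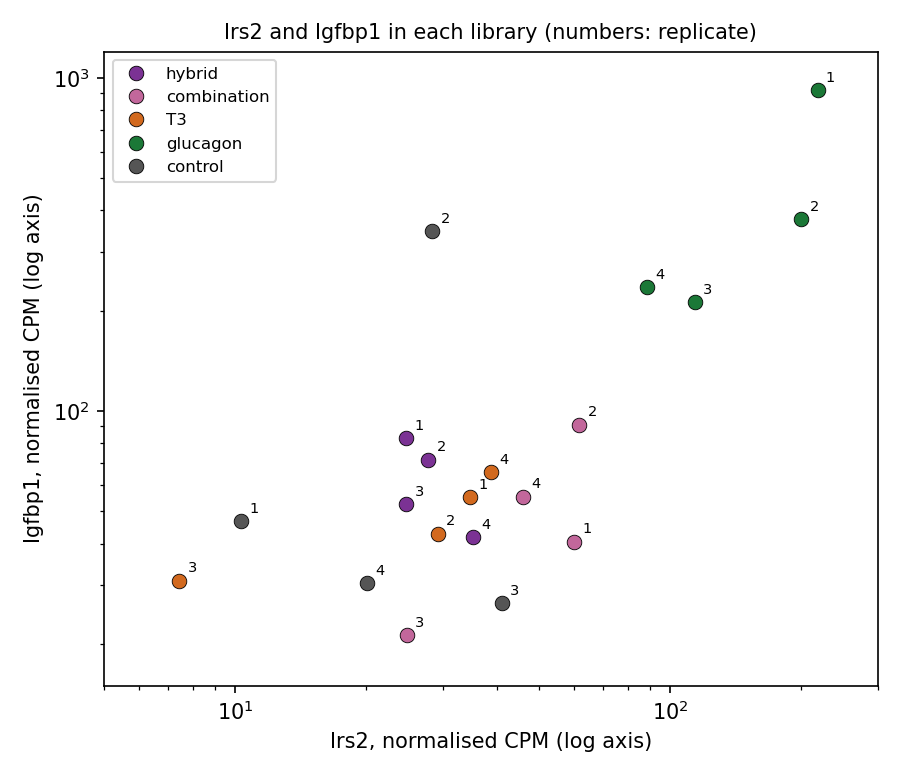
Irs2 and Igfbp1 in each of the 20 libraries, in CPM on log axes, with the groups marked. The 4 glucagon libraries lie at 88.5 CPM or more for Irs2 and 212 CPM or more for Igfbp1, and control 2 stands apart from the other controls with 346 CPM of Igfbp1.

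Pik3r1 encodes the regulatory subunit of phosphatidylinositol 3-kinase that docks on the IRS adaptors, and lies on chromosome 13 (101680563 to 101768217, minus strand). It had 54.5, 77.1, 53.8 and 54.0 CPM in hybrid mice, 52.3, 56.5, 42.4 and 43.1 in combination mice, 34.5, 50.3, 52.4 and 41.7 in T3 mice, 108, 114, 129.8 and 101 in glucagon mice and 65.1, 44.5, 44.1 and 38.4 in controls. Again the 4 glucagon libraries lay above all 16 others. Glucagon raised Pik3r1 2.36-fold over control (log2 1.24 ± 0.18, edgeR adjusted p = 5.42e-05). It was 2.33-fold lower in combination than in glucagon mice (log2 -1.22 ± 0.18, adjusted p = 6.03e-05) and 1.89-fold lower in hybrid than in glucagon mice (log2 -0.92 ± 0.18, adjusted p = 0.000837). The combination group differed from control by 0.01 ± 0.18 (adjusted p = 0.965, 95% interval -0.36 to 0.39). Hybrid mice lay 0.32 ± 0.18 above control (adjusted p = 0.211), or 0.50 without control 1, where the call was gained (adjusted p = 0.0354).

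Akt1 and Akt2 encode 2 of the AKT kinases, of which AKT2 is the one known for its part in insulin action on glucose. Akt1 lies on chromosome 12 (112653821 to 112674884, minus strand) and Akt2 on chromosome 7 (27591552 to 27640826, plus strand). The sequence upstream of the first Akt1 start is shown because Akt1 was the member that stood high in each group with T3. Capitals mark AGGTCA, a site bound by thyroid hormone and other nuclear receptors, and TGTTTAC, the other strand of GTAAACA, the FOXO core.
Akt1, chr12:112674885-112675134, minus strand: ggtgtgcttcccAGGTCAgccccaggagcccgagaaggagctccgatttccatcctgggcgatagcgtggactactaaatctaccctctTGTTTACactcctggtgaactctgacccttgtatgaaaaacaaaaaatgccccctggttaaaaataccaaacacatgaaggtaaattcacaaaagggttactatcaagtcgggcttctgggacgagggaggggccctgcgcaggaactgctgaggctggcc
AGGTCA stands at bases 238 to 233 before the start and TGTTTAC at 161 to 155. On either strand AGGTCA was found in 14.0% and GTAAACA in 3.17% of the same windows of all promoters. The second Akt1 start held none of the 4 motifs searched. As above, such letters describe the sequence, not binding, and their part in the Akt1 profile was not tested.

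Akt1 had 126, 116, 119 and 102 CPM in hybrid mice, 128, 133, 152 and 108 in combination mice, 138, 123, 115 and 152 in T3 mice, 76.3, 90.6, 78.3 and 95.5 in glucagon mice and 46.8, 69.7, 92.8 and 73.2 in controls. All 12 libraries from mice that received T3 in any form lay above all 8 glucagon and control libraries. Against control it rose 1.64-fold in hybrid mice (log2 0.71 ± 0.17, edgeR adjusted p = 0.00448), a call lost when only those 2 groups were fitted (0.73, adjusted p = 0.0665). In combination mice it rose 1.85-fold (log2 0.89 ± 0.17, adjusted p = 0.00106), and in T3 mice 1.87-fold (log2 0.90 ± 0.17, adjusted p = 0.00141). Glucagon mice lay 0.27 ± 0.17 above control, which did not pass (adjusted p = 0.271). The combination exceeded glucagon by 0.61 ± 0.17 (adjusted p = 0.0123), a call lost without combination 3 (0.52, adjusted p = 0.0509). The hybrid exceeded glucagon by 0.44 ± 0.17 and did not pass (adjusted p = 0.0608), although the 4 libraries of each group did not overlap. This call was gained when only those 2 groups were fitted (0.45, adjusted p = 0.0140).

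Akt2 averaged 15.9 ± 1.59 CPM in hybrid mice, 17.6 ± 1.47 in combination mice, 19.6 ± 3.35 in T3 mice, 14.3 ± 1.88 in glucagon mice and 17.2 ± 5.11 in controls (SD, n = 4 each). The control libraries, at 15.2, 12.2, 24.2 and 17.0 CPM, spanned every treated library. No comparison with control passed, and their 95% intervals together ran from -0.63 to 0.57 on the log2 scale. T3 exceeded glucagon by 0.46 ± 0.18 with an adjusted p of 0.0608, which fell below 0.05 in 6 of the 27 other settings tried, with values from 0.0254 to 0.0479.

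Foxo1 and Foxo3 encode the FOXO factors that AKT restrains. FOXO1 is known in liver for switching on glucose production genes. Foxo1 lies on chromosome 3 (52268336 to 52353221, plus strand), where Gm20402 shares 674 exon bases on the other strand, and Foxo3 on chromosome 10 (42181841 to 42276755, minus strand). Foxo1 had 80.7, 53.6, 68.9 and 56.7 CPM in hybrid mice, 70.5, 79.8, 77.2 and 50.8 in combination mice, 55.7, 63.4, 72.8 and 61.8 in T3 mice, 109, 115, 95.0 and 80.4 in glucagon mice and 58.8, 33.7, 58.2 and 47.1 in controls. The glucagon libraries lay above all 12 combination, T3 and control libraries, and glucagon 4 and hybrid 1 overlapped. Glucagon raised Foxo1 2.02-fold over control (log2 1.01 ± 0.19, edgeR adjusted p = 0.000745). Hybrid mice had 1.53-fold less Foxo1 than glucagon mice (log2 -0.62 ± 0.19, adjusted p = 0.0206), a call lost without any of glucagon 1, glucagon 2, hybrid 2 or hybrid 4 (adjusted p = 0.0578 to 0.0764). Combination mice were 0.52 ± 0.19 below glucagon mice on the log2 scale and just missed the threshold (adjusted p = 0.0528). With the replicate number as a block the difference passed (-0.53, adjusted p = 0.0404), as it did without control 2 and glucagon 3 (-0.55, adjusted p = 0.0383), but not without hybrid 4 and combination 4 as well (-0.43, adjusted p = 0.131).

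Above control, Foxo1 lay 0.40 ± 0.19 in hybrid mice (edgeR adjusted p = 0.136), 0.49 ± 0.19 in combination mice (adjusted p = 0.0705) and 0.36 ± 0.19 in T3 mice (adjusted p = 0.193). The combination value passed without control 1, control 3 or combination 4, with adjusted p of 0.0481, 0.0482 and 0.0320.

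Foxo3 had 30.9, 32.4, 35.2 and 23.4 CPM in hybrid mice, 43.9, 40.2, 26.0 and 27.5 in combination mice, 26.7, 35.9, 25.6 and 27.8 in T3 mice, 52.1, 59.6, 43.8 and 40.1 in glucagon mice and 44.1, 36.8, 61.2 and 37.5 in controls. Hybrid and T3 libraries lay below every control and every glucagon library, and combination libraries overlapped both. Foxo3 was 1.54-fold lower in T3 mice than in controls (log2 -0.63 ± 0.21, edgeR adjusted p = 0.0394), a call lost in 9 of 27 other settings (adjusted p up to 0.126), leaving out control 1, control 3, T3 1, T3 3 or T3 4 among them. In hybrid mice it was 0.56 ± 0.20 below control and just missed the threshold (adjusted p = 0.0521). With the replicate block that difference passed (-0.57, adjusted p = 0.0372), as it did without control 2 and glucagon 3 (-0.64, adjusted p = 0.0310), but not without hybrid 4 and combination 4 as well (-0.51, adjusted p = 0.108). Hybrid mice were 1.60-fold below glucagon mice (log2 -0.68 ± 0.20, adjusted p = 0.0182), lost without glucagon 2 or hybrid 4 (adjusted p = 0.0642 and 0.0650) and without the 4 libraries set apart (-0.62, adjusted p = 0.0580). Unlike Foxo1, Foxo3 in glucagon mice was 0.13 ± 0.20 from control (adjusted p = 0.691); the difference between the 2 genes was not tested.

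Igfbp1 encodes a liver-secreted protein that binds insulin-like growth factors, and its gene is a classic FOXO target that insulin switches off. It lies on chromosome 11 (7197782 to 7202546, plus strand). Its upstream sequence is shown because it holds the insulin response element letters, marked in capitals, at bases 108 to 102 before the RefSeq start.
Igfbp1, chr11:7197537-7197786, plus strand: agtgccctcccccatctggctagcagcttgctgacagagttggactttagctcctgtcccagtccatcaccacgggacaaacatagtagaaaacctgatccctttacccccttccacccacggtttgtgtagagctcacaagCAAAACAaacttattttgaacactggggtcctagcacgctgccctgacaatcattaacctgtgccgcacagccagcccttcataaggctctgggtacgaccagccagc
Igfbp1 had 83.1, 71.5, 52.6 and 41.8 CPM in hybrid mice, 40.6, 91.2, 21.3 and 55.4 in combination mice, 55.2, 42.9, 31.0 and 65.7 in T3 mice, 918, 377, 212 and 236 in glucagon mice and 46.8, 346, 26.6 and 30.4 in controls. Only control 2, the library with the high interferon genes, reached the range of the glucagon libraries, and the other 15 libraries outside the glucagon group lay at 91.2 CPM or below. Glucagon mice were 3.86-fold above control (log2 1.95 ± 0.68, edgeR adjusted p = 0.0452), a call lost in 14 of 27 other settings. Without control 2 the log2 change was 3.66 ± 0.54 (adjusted p = 5.86e-05), and without glucagon 3 as well it was 3.88 ± 0.52 (adjusted p = 2.79e-05). Without glucagon 1, the highest library, it was 1.29 (adjusted p = 0.186), and without control 1, 3 or 4 it was 1.64 to 1.71 (adjusted p = 0.0811 to 0.109). Without glucagon 2 it was 2.03 (adjusted p = 0.0658).

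Against glucagon mice, Igfbp1 was called low with and without control 2. It was 6.99-fold lower in hybrid than in glucagon mice (log2 -2.80 ± 0.70, edgeR adjusted p = 0.00577). It was 8.36-fold lower in combination than in glucagon mice (log2 -3.06 ± 0.71, adjusted p = 0.00348). Without control 2, which also enters the shared estimate of spread, these were -2.81 ± 0.46 (adjusted p = 0.000122) and -3.08 ± 0.46 (adjusted p = 5.99e-05). Against control the hybrid, combination and T3 groups differed by -0.86 ± 0.66, -1.11 ± 0.66 and -1.21 ± 0.67, none of which passed (adjusted p = 0.373, 0.249 and 0.216). Without control 2 these signs turned, to 0.86 ± 0.48, 0.59 ± 0.47 and 0.49 ± 0.48, and again none passed (adjusted p = 0.191, 0.402 and 0.491).

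The comparisons between treatments asked how T3 changed the glucagon profile. Against glucagon alone, the combination lowered 3 members (Irs2, Pik3r1 and Igfbp1) and raised Akt1, where 22.5% of all tested genes were called, 10.2% lower and 12.4% higher. The hybrid lowered 5 (Irs2, Pik3r1, Foxo1, Foxo3 and Igfbp1) and raised none, beside 25.2% of all genes, 13.6% higher and 11.7% lower. T3 mice were also set against glucagon mice. The T3 mice received no glucagon, so this comparison does not show T3 acting on a glucagon profile. In T3 mice 6 members stood lower than in glucagon mice (Irs1, Irs2, Pik3r1, Foxo1, Foxo3 and Igfbp1) and Akt1 stood higher. Beside them 31.3% of all genes were called, 14.9% lower and 16.4% higher. Of the 6, only Foxo3 was also called lower in T3 mice than in controls. Among the 7 called members, Pik3r1 had the smallest adjusted p (log2 -1.34 ± 0.18, edgeR adjusted p = 1.47e-05). Igfbp1 had the largest change (-3.16 ± 0.71, adjusted p = 0.00213). Irs1 lost its call without T3 3 (-0.56, adjusted p = 0.0501). The 3 comparisons share the glucagon libraries. Against T3 alone, Irs1 was the 1 member called in either case, higher by 0.82 ± 0.20 in hybrid mice (adjusted p = 0.0160, 6.36% of all genes called, 3.69% higher and 2.67% lower) and by 0.90 ± 0.20 in combination mice (adjusted p = 0.0240, 1.39% of all genes called, 1.13% higher). The hybrid call was lost without T3 1, T3 3 or hybrid 3 (adjusted p = 0.0504 to 0.0618), and the combination call without T3 1, T3 3, T3 4, combination 1 or combination 2 (adjusted p = 0.0707 to 0.101).

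**Figure D4:**
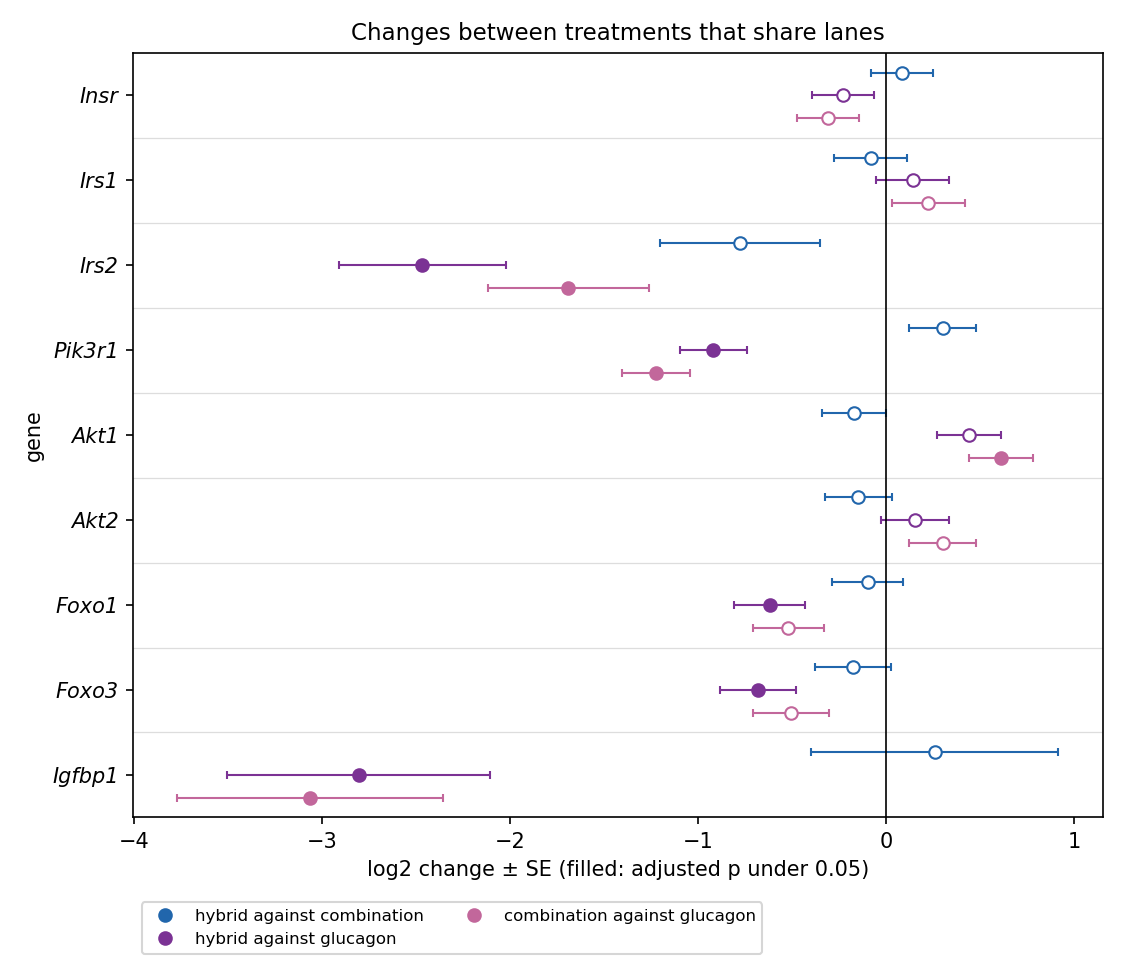
Log2 fold change (x axis) of each member between treatments. Points are estimates, bars 1 SE, and filled points passed an adjusted p of 0.05. Irs2, Pik3r1 and Igfbp1 lie left of 0 in hybrid and combination mice against glucagon mice, and no point is filled for hybrid against combination.

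Whether the glucagon effect differed with T3 present was tested as the combination minus T3 difference less the glucagon minus control difference. The T3 libraries enter this test and ran in a lane of their own. For any gene, a departure from additivity and an effect of that lane therefore cannot be told apart. Pik3r1 departed from additivity by -1.12 ± 0.25 (edgeR adjusted p = 0.0140) and was the 1 member called, beside 3.73% of all genes, 2.14% with a negative departure. Without the 4 libraries set apart that call was lost (-0.97 ± 0.30, adjusted p = 0.106). Foxo1 departed by -0.88 ± 0.27 (adjusted p = 0.0775) and Irs2 by -1.83 ± 0.61 (adjusted p = 0.109). DESeq2 called both, with adjusted p of 0.0356 and 0.0408. Foxo1 also passed without control 1 or control 3 (adjusted p = 0.0442 and 0.0449), and Irs2 without control 3 or T3 3 (adjusted p = 0.0387 and 0.0243). Igfbp1 departed by -1.85 ± 0.94 (adjusted p = 0.327), by -3.57 ± 0.67 without control 2 (adjusted p = 0.00250), and by -3.83 ± 0.68 without the 4 libraries (adjusted p = 0.00344). Irs1 and Akt1 departed by 0.24 ± 0.28 and -0.29 ± 0.24 (adjusted p = 0.709 and 0.581).

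Hybrid and combination mice were compared to ask whether joining the hormones in 1 molecule gave another profile than giving both. The test called 0 of 9 members with edgeR, where 4 of 12907 genes (0.0310%) were called. DESeq2 called 0 members, beside 28 of 13143 genes. With edgeR 0 members had an unadjusted p under 0.05, beside 891 of 12907 genes. Adjusted p ran from 0.755 to 0.963. The largest difference was in Irs2, lower by 0.78 ± 0.43 in hybrid mice (95% interval -1.67 to 0.11), and that of Igfbp1, 0.26 ± 0.66, had an interval of -1.11 to 1.63. For Irs1, Akt1 and Foxo1 the intervals were -0.49 to 0.32, -0.52 to 0.18 and -0.49 to 0.29. Doses were not given, so matched dosing cannot be read from these groups.

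The other genes of the pathway were followed in 7 lists, whose counts stand beside the shares of all genes called against control: 11.2% higher and 13.2% lower in hybrid mice, 9.23% and 10.9% in combination mice, 7.31% and 10.6% in T3 mice, and 9.23% and 11.9% in glucagon mice. Those shares are from all 20 libraries. Without control 2 and glucagon 3, of 12847 genes 1698 were called higher and 1983 lower in hybrid mice. In combination mice 1246 and 1565 were, in T3 mice 1205 and 1510, and in glucagon mice 1040 and 1142. Without all 4 libraries, of 12792 genes 1453 were called higher and 1501 lower in hybrid mice. In combination mice 1074 and 1163 were, in T3 mice 1150 and 1326, and in glucagon mice 1002 and 949. The lists were chosen with earlier results of these data known, so their counts are a description and not a test. In glucagon mice against controls, 11 of 27 tested FOXO target genes rose and 4 fell, with a median log2 change of 0.16 against -0.09 for all genes. Without control 2 and glucagon 3, 8 rose and 5 fell, with a median of 0.06 against -0.10 for all genes. Ppargc1a, a coactivator of glucose production genes, reached 178 ± 20.6 CPM in glucagon mice and 10.8 ± 2.05 in controls (SD, n = 4 each, log2 4.04 ± 0.20, edgeR adjusted p = 4.36e-11). Bcl2l11, which encodes the cell death protein BIM, had 44.4 ± 3.25 CPM in glucagon mice and 9.59 ± 1.03 in controls (log2 2.21 ± 0.18, adjusted p = 2.29e-08). G6pc, the last enzyme of glucose release, had 2060 ± 466 CPM in glucagon mice and 582 ± 219.9 in controls (log2 1.82 ± 0.23, adjusted p = 8.13e-06).

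Of the same FOXO targets, in hybrid mice 6 rose and 5 fell against control, in combination mice 6 rose and 2 fell, and in T3 mice 2 rose and 3 fell. Without control 2 and glucagon 3 these were 6 and 7 in hybrid mice, 6 and 3 in combination mice, and 4 and 3 in T3 mice, and without all 4 libraries set apart 7 and 5 in hybrid mice, 5 and 2 in combination mice, 5 and 3 in T3 mice, and 8 and 4 in glucagon mice. Whether the list differed between treatments was not tested. Ppargc1a was at 20.4 ± 3.45 CPM in hybrid mice, 14.1 ± 2.46 in combination mice and 7.22 ± 1.85 in T3 mice. It was lower than in glucagon mice by -3.12 ± 0.19 for the hybrid (edgeR adjusted p = 1.81e-09) and -3.65 ± 0.20 for the combination (adjusted p = 1.58e-10). Its departure from additivity was -3.07 ± 0.27 (adjusted p = 1.49e-06), and that of Pck1, the enzyme that commits carbon to new glucose, was -2.26 ± 0.39 (adjusted p = 0.00153). Pnpla2, the main triglyceride lipase, had 314 ± 40.8 CPM in hybrid mice, 299 ± 39.8 in combination mice, 271 ± 38.8 in T3 mice, 159 ± 21.0 in glucagon mice and 116 ± 49.3 in controls, and rose against control with each T3-holding treatment (log2 1.43 for the hybrid, 1.36 for the combination and 1.22 for T3, adjusted p = 0.000305, 0.000602 and 0.00238). Cat, the antioxidant enzyme catalase, fell with the same 3 treatments (log2 -1.55 for the hybrid, -1.09 for the combination and -1.02 for T3, adjusted p = 1.63e-05, 0.000626 and 0.00182).

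**Figure D5:**
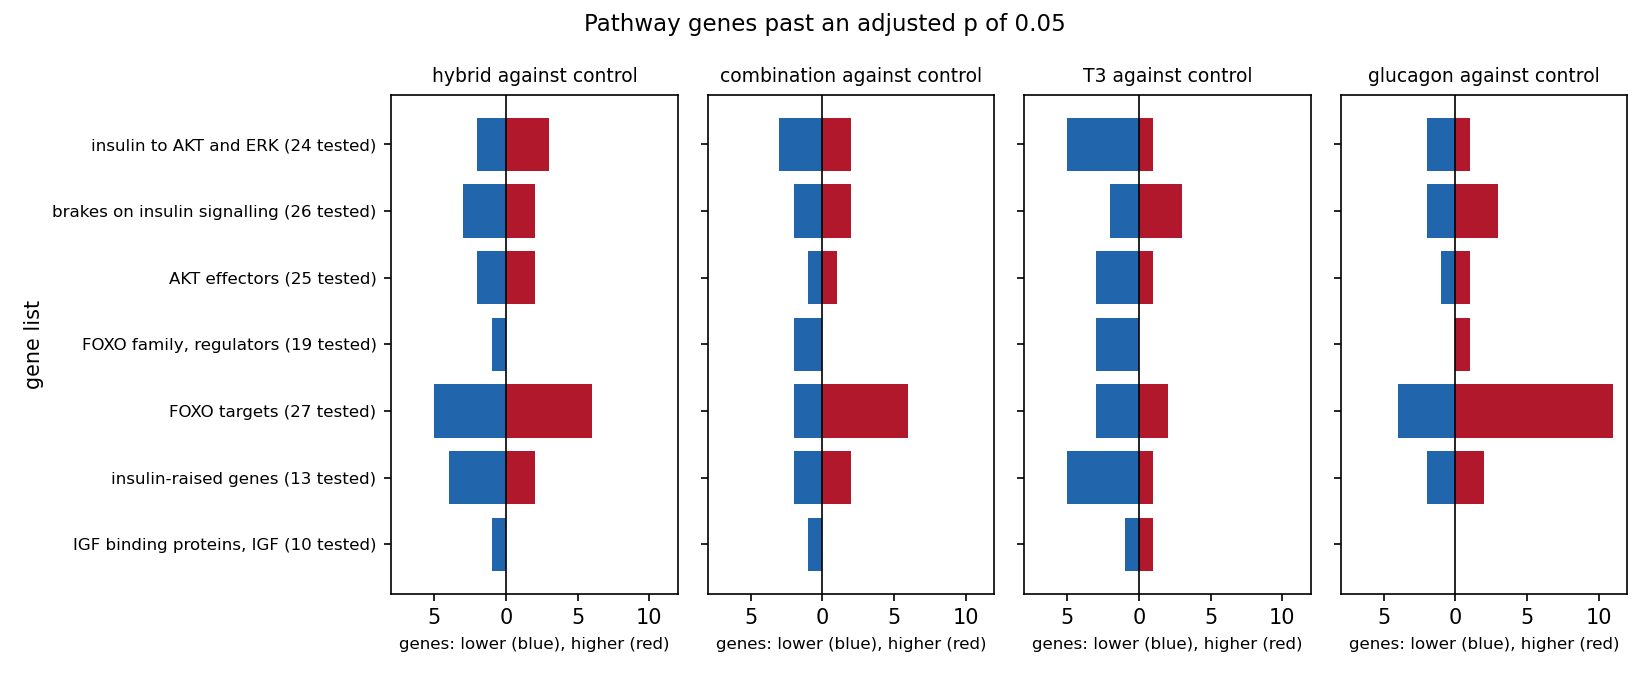
Number of genes in each of the 7 pathway lists that rose or fell against control at an adjusted p under 0.05, by treated group. In glucagon mice FOXO targets hold the most calls, with 11 rising and 4 falling among 27 tested. In T3 mice they hold fewer, with 2 rising and 3 falling. There the insulin to AKT list (24 tested) and the insulin-raised genes (13 tested) each have 1 rising and 5 falling.

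Of 24 tested genes that carry the insulin signal to AKT, beyond the members, 3 rose and 2 fell in hybrid mice against control, 2 rose and 3 fell in combination mice, 1 rose and 5 fell in T3 mice, and 1 rose and 2 fell in glucagon mice. Without control 2 and glucagon 3 the counts were 2 and 2 in hybrid mice, 2 and 4 in combination mice (2 and 2 without all 4 libraries), 1 and 4 in T3 mice, and 0 and 3 in glucagon mice. Pik3cd, the catalytic subunit of the leukocyte kinase, had 25.0 ± 4.08 CPM in hybrid mice, 24.5 ± 5.60 in combination mice, 29.6 ± 4.82 in T3 mice, 8.92 ± 0.623 in glucagon mice and 13.6 ± 6.04 in controls. It was thus low where the macrophage list was low and high where that list was high, and the part of those cells in it was not tested.

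Among 26 tested genes that restrain insulin signalling, 2 rose and 3 fell in hybrid mice against control, 2 rose and 2 fell in combination mice, 3 rose and 2 fell in T3 mice, and 3 rose and 2 fell in glucagon mice. Without control 2 and glucagon 3 the counts were 5 and 3 in hybrid mice (4 and 3 without all 4 libraries), 4 and 4 in combination mice (4 and 1 without all 4), 4 and 3 in T3 mice, and 5 and 0 in glucagon mice. Socs3, an inhibitor of receptor signalling, rose to 49.9 ± 23.4 CPM in glucagon mice, against 13.7 ± 3.85 in controls (log2 1.87 ± 0.35, edgeR adjusted p = 0.000762). Phlpp1 encodes a phosphatase that acts on AKT. It had 15.5 ± 1.67 CPM in hybrid mice, 18.7 ± 2.75 in combination mice and 18.2 ± 2.12 in T3 mice. Glucagon mice had 42.2 ± 4.60 CPM and controls 24.5 ± 7.03. Against control Phlpp1 fell with the hybrid (log2 -0.66 ± 0.17, adjusted p = 0.00832) and rose with glucagon (0.79 ± 0.17, adjusted p = 0.00253). Grb14, which blocks the receptor kinase, fell in hybrid mice to 79.3 ± 7.74 CPM, against 133 ± 12.4 in controls (log2 -0.74 ± 0.12, adjusted p = 0.000163). It also fell in combination mice, to 102 ± 9.64 CPM (log2 -0.38 ± 0.12, adjusted p = 0.0312). T3 mice had 116 ± 10.5 CPM of Grb14 and glucagon mice 113 ± 6.87.

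A further list of 25 tested genes held AKT effectors together with genes related to AKT. Against control, 2 rose and 2 fell in hybrid mice, and 1 rose and 1 fell in combination mice. In T3 mice 1 rose and 3 fell, and in glucagon mice 1 rose and 1 fell. Without control 2 and glucagon 3, 2 rose and 4 fell in hybrid mice (3 and 1 without all 4 libraries), 0 rose and 3 fell in combination mice (0 and 2 without all 4), and the other groups kept their counts. The 2 called in glucagon mice encode kinases related to AKT and to each other, and they moved in opposite directions. Sgk1 had 114 ± 33.3 CPM in glucagon mice and 39.7 ± 7.08 in controls (log2 1.51 ± 0.23, edgeR adjusted p = 9.38e-05). Sgk2 had 13.4 ± 4.52 CPM in glucagon mice and 70.6 ± 22.2 in controls (log2 -2.39 ± 0.29, adjusted p = 6.16e-06). Both departed from additivity, Sgk1 by -2.46 ± 0.33 (adjusted p = 0.000116) and Sgk2 by 2.77 ± 0.40 (adjusted p = 0.000268).

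Among 19 tested FOXO relatives and FOXO regulators, 0 rose and 1 fell in hybrid mice against control, 0 rose and 2 fell in combination mice, 0 rose and 3 fell in T3 mice, and 1 rose and 0 fell in glucagon mice. With control 2 and glucagon 3 left out, 1 rose and 1 fell in hybrid mice and 0 rose and 1 fell in combination mice. Sirt3, a mitochondrial deacetylase, was called in each T3-holding group, at 47.9 ± 8.86 CPM in hybrid mice, 62.8 ± 7.53 in combination mice and 63.0 ± 14.8 in T3 mice, against 98.5 ± 33.7 in controls. Of the 10 genes of the IGF-binding protein family and the IGF axis beyond Igfbp1, 1 fell in hybrid mice, 1 fell in combination mice, 1 rose and 1 fell in T3 mice, and 0 passed in glucagon mice. When control 2 and glucagon 3 were left out, 1 rose and 1 fell in combination mice and 1 fell in T3 mice. Without all 4 libraries 2 fell in hybrid mice and 0 passed in combination mice. Igfbp3 fell in 3 groups against control, with log2 changes of -0.82 ± 0.19 in hybrid mice (edgeR adjusted p = 0.00402), -0.61 ± 0.19 in combination mice (adjusted p = 0.0297) and -0.72 ± 0.20 in T3 mice (adjusted p = 0.0154).

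Genes that insulin raises in liver, 13 in all and among them those of lipid synthesis, were followed last. Acly, which makes the acetyl-CoA for fat synthesis, had 1182 ± 498 CPM in glucagon mice and 457 ± 231 in controls (log2 1.37 ± 0.31, edgeR adjusted p = 0.00359), whereas T3 mice had 94.7 ± 10.9 CPM (log2 -2.27 ± 0.32, adjusted p = 9.77e-05). Hybrid mice had 271 ± 55.9 CPM of Acly and combination mice 302 ± 65.8. Srebf1, the factor that drives these genes, had 249 ± 83.6 CPM in hybrid mice and 385 ± 209 in combination mice, against 963 ± 466 in controls (log2 -1.95 ± 0.36 for the hybrid, adjusted p = 0.000592, and -1.32 ± 0.36 for the combination, adjusted p = 0.0125). T3 mice had 382 ± 65.3 CPM of Srebf1, near the combination, and glucagon mice had 1373 ± 27.7. As a list, 2 rose and 4 fell in hybrid mice against control, 2 rose and 2 fell in combination mice, 1 rose and 5 fell in T3 mice, and 2 rose and 2 fell in glucagon mice. Without control 2 and glucagon 3 the counts were 1 and 5 in hybrid mice (1 and 4 without all 4 libraries), 1 and 4 in combination mice (1 and 2 without all 4), 0 and 5 in T3 mice, and 2 and 2 in glucagon mice.

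For each member, the genes whose log2 CPM ran most closely with it over the 20 libraries were sought among 5306 genes that averaged 20 CPM or more. The libraries share groups and lanes, so these correlations describe the profile only. Pearson's r was 0.96 between Akt1 and Sidt2 (Spearman's rho 0.91), 0.95 between Pik3r1 and Ell2 (0.88), 0.92 between Irs2 and Rnf217 (0.79) and 0.92 between Irs1 and Hif1an (0.91). It was 0.90 between Igfbp1 and Rasgef1b (rho 0.72), 0.89 between Foxo3 and Slc25a13 (0.94), and 0.89 between Foxo1 and Fgf1 (0.80). The 2 members with no calls had the lowest leading values, 0.84 between Insr and Ptprj (rho 0.84) and 0.81 between Akt2 and Bahcc1 (0.76).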

How the data were processed

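Per the labels' protocols, a Qiagen kit gave the liver RNA and a Lexogen kit the libraries. The deposited values are raw counts of reads per gene symbol, made by the authors (HTSeq and mm10 are named, per the submitters' processing notes). The aligner, annotation and strand setting were not given in the sources used here. The 20 mice are the replicates, 4 in each of 5 groups, and no pair of libraries was identical. The files coded Cp were taken as the hybrid by elimination.

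Counts were tested in R 4.3.3 with edgeR 4.0.16 (limma 3.58.1 loaded). The filter filterByExpr by group (minimum count 10, minimum total 15) kept 12907 of 13319 genes. TMM scaling and a quasi-likelihood fit of all 20 libraries with 5 group means followed, with a common dispersion of 0.0770, and Benjamini-Hochberg adjustment over all tested genes. CPM values were computed from the counts with TMM library sizes. Intervals are 95% intervals of the log2 change. The script recovered known changes when tested on simulated data.

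Replicate numbers mark lanes 1 to 4 in all groups but T3, which ran in lane 5, per the labels. The same lane links same-numbered libraries, whose deviations from group means correlated from -0.318 to 0.462 over 24 pairs, with 10 above 0.1. The alternatives were DESeq2 1.42.0, RLE scaling, no filter, a fit of the compared groups only, the replicate number as a block, each library left out, and control 2 and glucagon 3 left out together. Chosen after seeing the data were list counts without those 2 and a fit that also left out hybrid 4 and combination 4. The comparison of T3 with glucagon was added after seeing the data. The replicate block also held the T3 libraries under numbers 1 to 4, although all ran in lane 5, so for them it does not follow lane.

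The members and all gene lists were chosen with earlier results of these data known, as was leaving out control 2 and glucagon 3. All 9 members were named, with up to 3 called genes of smallest p from each list and comparison, and the genes closest to each member by Pearson's r. Some genes that this rule names are not reported here. Sequences are from RefSeq, GRCm38.p6, where 8 of the 9 members matched by symbol, and gene positions from GENCODE M21 on GRCm38. The letters of 4 motifs, spelled out beside the sequences, were searched on both strands.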

Additional observations from a re-analysis of the deposited data

Results flagged for a closer look

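In 45 groups of 4 libraries (9 genes, 5 groups), 5 had 1 library far from the other 3, where chance gives about 1 in 20. Igfbp1 in control 2 was 346 CPM, against 26.6 to 46.8 CPM in the other controls. Pik3r1 in hybrid 2 was 77.1 CPM, against 53.8 to 54.5 CPM in the other hybrid libraries. Irs1 in hybrid 3 was 91.6 CPM, against 68.7 to 72.2 CPM. Insr in glucagon 4 was 159 CPM, against 139 to 141 CPM in the other glucagon libraries, and Akt2 in the same library was 17.1 CPM, against 13.1 to 13.6 CPM.

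Pik3r1 is listed here also because it departed from additivity, by -1.12 on the log2 scale (edgeR adjusted p = 0.0140). That call held in 26 of 27 other settings tried, and was lost without control 2, glucagon 3, hybrid 4 and combination 4 (-0.97, adjusted p = 0.106). The T3 libraries, which ran in a lane of their own, enter this test. An effect of T3 on the glucagon response and an effect of that lane therefore cannot be told apart.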

How the results depend on the processing

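Of 30 calls over the members, 19 held in all 27 other settings, 11 were lost in at least 1, and 0 turned in sign. Of 69 values not called, 13 were called in some setting. With the replicate block, 0 calls were lost and 2 gained (Foxo3 in hybrid mice against control and Foxo1 in combination against glucagon mice), so the counts became 3 against 2 for the hybrid over control and 5 against 4 for the combination over glucagon. The block changed no other call. It grouped the T3 libraries by replicate number although all ran in lane 5, so for T3 mice it is no check on lane. With the compared groups alone, 3 members were called for glucagon against control, 1 for T3 and 1 for the hybrid. Against glucagon, 6 were called for the combination, 6 for the hybrid and 8 for T3. In these comparisons calls over all genes moved the same way. Against control they went from 2732 of 12907 genes to 976 of 12458 for glucagon. For T3 they went from 2317 to 503 of 12015, and for the hybrid from 3144 to 1208 of 12575. Against glucagon they went from 2906 to 4177 of 12288 for the combination. For the hybrid they went from 3255 to 4162 of 12538, and for T3 from 4042 to 5068 of 11971. For departure from additivity, DESeq2 called 3, beside 678 of 13143 genes. Leaving out control 2 and glucagon 3 gave 2, beside 525 of 12847 genes. Without hybrid 4 and combination 4 as well there was 1, beside 398 of 12792 genes. Leaving out 1 library gave 4 to 5 calls for glucagon, 1 to 2 for T3, 2 to 4 for the combination and 2 to 3 for the hybrid against control. It gave 3 to 6 for the combination and 3 to 6 for the hybrid against glucagon, 6 to 9 for T3 against glucagon, and 0 to 1 for the combination and 0 to 1 for the hybrid against T3. For additivity it gave 1 to 3, and for the hybrid against the combination 0 in each case. Shares of all genes called in the fits that left out 1 library are not given here, so these ranges stand without them. Causes of these shifts were not tested. Depth was lowest in T3 mice, where Irs2 rested on 63 counts in T3 3.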
